A study of Mus musculus with 6 samples.

Results

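Open chromatin around 5 mouse genes, Osr1, Osr2, Tbx22, Mn1 and Meox2, was described in the embryonic face. Peaks of 6 ATAC-seq libraries were merged into 382006 regions wherever they overlapped by at least 1 bp, and a region was given to the protein-coding gene whose transcription start site was nearest to the strongest summit of the region, up to 200 kb away. Of the 302189 regions that were given to a gene, 225 were nearest to one of the 5 genes, with 72 at Osr1, 36 at Osr2, 18 at Tbx22, 44 at Mn1 and 55 at Meox2. All 5 genes had regions, against 18945 of 21827 protein-coding genes in the annotation.

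The 5 genes encode nuclear factors of facial mesenchyme, the loose tissue of largely neural crest origin that fills the facial prominences. Osr2, Tbx22, Mn1 and Meox2 are known from clefts of the palate. The palatal shelves grow out of the maxillary processes after the stage studied here. Osr1 and Osr2 are odd-skipped related zinc finger transcription factors. Loss of Osr2 in mice leaves the palate cleft, and Osr1 is best known from intermediate mesoderm, the heart and the kidney. Tbx22 is an X-linked T-box factor whose human counterpart is mutated in X-linked cleft palate with ankyloglossia. Mn1 is a transcriptional coactivator without which mice form a cleft palate and express less Tbx22 in the shelves. Meox2 is a homeobox factor of paraxial mesoderm, and its loss can also leave the palate cleft in mice.

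The embryos were wild-type mice at E11.5, with 2 libraries labelled maxillary process, 2 labelled mandibular process and 2 labelled nose. ATAC-seq reads out where Tn5 transposase can cut and tag open DNA, and here nuclei of freshly dissected tissue of mixed cell type were used and reads of 50 bases were sequenced from one end. No treatment or mutation was involved. Nothing in the labels tells separate embryos, pools and repeated preparations apart among libraries with the same label, so every p-value below measures only the spread between these libraries, which may be technical. Bulk tissue cannot tell fewer cells of an accessible type apart from less accessibility per cell.

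Each library was deposited as 1 list of peaks, with between 219779 and 299731 summits, and each summit had a fold over the local background of its own library, a −log10 p and a −log10 q. The lowest listed −log10 q was 2.55 for maxillary process replicate 2, 1.62 for mandibular process replicate 1 and 1.3 for the others, so a region without a listed peak was not necessarily closed. The depth in reads was not used here. For the 4 jaw lists, the file names and the sample labels disagreed, since each name used the short form of the opposite jaw. Around Hand1, Hand2, Dlx5 and Dlx6, known markers of lower-jaw mesenchyme, 7 of 140 regions were specific to the label maxillary process, that is, called in both of its libraries and in no other, 3 to the label mandibular process and 2 to the label nose (5.0%, 2.14% and 1.43%). Around the upper-jaw markers Pou3f3, Nr2f1 and Nr2f2 these counts were 3, 8 and 13 of 226 (1.33%, 3.54% and 5.75%). Over all regions near genes the shares were 1.84%, 2.64% and 2.9%. Lists for olfactory and surface epithelium, endothelium, muscle progenitors, neurons, Schwann cell precursors and melanoblasts, and blood had 0 to 9 such regions a label among 23 to 240 regions a list. The highest share was 4 of the 23 regions around blood genes (17.4%), for the label mandibular process. The jaws alone were also compared, by regions called in both libraries of 1 jaw label and in neither of the other. Around the lower-jaw markers these were 7 for the maxillary and 6 for the mandibular label, and around the upper-jaw markers 7 and 12. The share of such regions near all genes was not counted. The text therefore speaks of labels. An exchange of the 2 jaw labels would turn the sign of every difference between the jaws and swap the jaw names in every comparison with the nose.

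The sequences on which the comparisons below turn are given first, each as the 201 bases centred on the strongest summit of its region, read from the GRCm38 reference of RefSeq on the plus strand. The first 4 are windows from regions that only the libraries of 1 label had, 2 at Osr2 with the label mandibular process, 1 at Meox2 with the label maxillary process and 1 at Osr1 with the label nose. The fifth is the Tbx22 region that alone passed the test between labels. The last 4 belong to regions that every library had, namely the best-ranked distant regions of Tbx22, Osr1 and Meox2 and the promoter of Osr2. Capitals mark matches to the 12 short motifs named after them.
Osr2 27.2 kb downstream, chr15:35327414-35327614, plus strand: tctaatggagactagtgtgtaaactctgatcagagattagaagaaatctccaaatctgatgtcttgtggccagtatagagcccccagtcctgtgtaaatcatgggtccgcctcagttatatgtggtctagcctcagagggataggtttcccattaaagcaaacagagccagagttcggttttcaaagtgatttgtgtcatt
Osr2 22.0 kb upstream, chr15:35273997-35274197, plus strand: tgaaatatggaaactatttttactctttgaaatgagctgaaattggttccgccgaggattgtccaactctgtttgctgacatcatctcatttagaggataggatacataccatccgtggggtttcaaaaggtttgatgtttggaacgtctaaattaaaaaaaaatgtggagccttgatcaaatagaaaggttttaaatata
Meox2 24.7 kb upstream, chr12:37083770-37083970, plus strand: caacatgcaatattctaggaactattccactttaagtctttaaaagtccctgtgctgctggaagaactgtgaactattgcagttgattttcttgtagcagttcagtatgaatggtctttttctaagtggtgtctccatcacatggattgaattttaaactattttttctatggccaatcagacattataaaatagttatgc
Osr1 95.1 kb upstream, chr12:9479236-9479436, plus strand: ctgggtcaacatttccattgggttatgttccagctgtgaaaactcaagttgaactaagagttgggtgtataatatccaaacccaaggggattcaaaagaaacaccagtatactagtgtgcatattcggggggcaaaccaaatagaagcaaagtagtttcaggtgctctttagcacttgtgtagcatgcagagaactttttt
Tbx22 44.9 kb downstream, chrX:107723818-107724018, plus strand: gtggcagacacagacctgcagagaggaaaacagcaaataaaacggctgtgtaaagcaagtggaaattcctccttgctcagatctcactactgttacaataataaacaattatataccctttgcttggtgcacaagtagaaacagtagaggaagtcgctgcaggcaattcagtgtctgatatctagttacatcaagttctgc
Tbx22 103 kb upstream, chrX:107564796-107564996, plus strand: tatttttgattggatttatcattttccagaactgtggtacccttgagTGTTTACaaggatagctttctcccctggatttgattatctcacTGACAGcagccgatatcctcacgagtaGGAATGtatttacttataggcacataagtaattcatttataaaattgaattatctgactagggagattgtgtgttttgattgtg
Osr1 10.5 kb downstream, chr12:9584864-9585064, plus strand: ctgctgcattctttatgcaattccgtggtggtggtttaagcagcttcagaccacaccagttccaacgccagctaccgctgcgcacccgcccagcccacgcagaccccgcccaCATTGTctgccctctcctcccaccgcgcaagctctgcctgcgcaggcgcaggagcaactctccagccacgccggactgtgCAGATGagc
Meox2 162 kb upstream, chr12:36946106-36946306, plus strand: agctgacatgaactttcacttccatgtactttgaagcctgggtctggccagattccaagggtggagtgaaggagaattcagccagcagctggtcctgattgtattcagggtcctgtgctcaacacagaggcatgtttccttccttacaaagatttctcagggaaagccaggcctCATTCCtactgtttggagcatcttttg
Osr2 promoter, chr15:35295895-35296095, plus strand: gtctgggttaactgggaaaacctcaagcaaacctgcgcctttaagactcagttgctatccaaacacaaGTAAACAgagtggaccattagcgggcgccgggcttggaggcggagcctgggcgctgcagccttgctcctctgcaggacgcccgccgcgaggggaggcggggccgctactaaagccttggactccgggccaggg

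Both strands of each window were searched for TAATTA (homeodomain), TGTTTAC (forkhead), CATCTG (Twist-type E-box), AGGTGTGA (T-box), AGGTCA (a nuclear receptor motif), TTGGCA (an NFI motif), ACAATG (SOX), GCCNNNGGC (TFAP2), GGAATG (TEAD), TGACAG (MEIS), TGTGGTT (RUNX) and TGANTCA (AP-1). The windows of the 4 label-specific regions and of the called Tbx22 region held no match. These label-specific windows were picked by rank, and others differed. The window of Osr1 132 kb upstream held a homeodomain and an E-box match, and that of Meox2 177 kb upstream MEIS, RUNX and AP-1 matches. The window of Osr1 95.9 kb upstream held none. The distant Tbx22 window held a forkhead, a MEIS and a TEAD match, the Osr1 window a SOX and an E-box match, the Meox2 window a TEAD match, and the Osr2 promoter a forkhead match. Over the 225 regions the shares stood close to those of all 302189 regions. The E-box letters were in 19.1% of the windows of the 5 genes and 20.3% of all windows, the SOX letters in 12.4% and 9.73%, the TEAD letters in 17.3% and 13.7%, the homeodomain letters in 5.78% and 4.69%, and the forkhead letters in 3.11% and 3.06%. The T-box letters were found in 1 of the 225 windows (0.444%), against 0.606% of all windows. For the nuclear receptor, NFI and TFAP2 letters the shares were 9.78%, 10.7% and 6.67%, against 10.3%, 10.5% and 7.01%. For the MEIS, RUNX and AP-1 letters they were 14.7%, 3.56% and 5.78%, against 16.1%, 5.26% and 6.7%. A match to such short letters is a description of the window and not a site of binding. The median GC content was 46.3% in the windows of the 5 genes and 48.3% in all windows.

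The regions of the 5 genes were shared between libraries much as regions elsewhere. Of the 225 regions, 90 and 113 were called in the maxillary libraries, 115 and 112 in the mandibular libraries, and 105 and 108 in the nose libraries. All 6 libraries had 44 of them (19.6%), against a background of 20.2% of all regions near genes, and 86 (38.2%) were called in 1 library alone, against 42.7%. Regions called in all libraries were broad, with a median of 581 bp, while those of 1 library had a median of 88 bp. Over all regions near genes these medians were 534 bp and 90 bp, and merging peaks of more libraries can only widen a region. For the 3 pairs of libraries with the same label, the regions called in both made up 54.4% to 59.0% of those called in either, and for the 12 pairs with different labels 41.1% to 48.1%. The same shares over all regions near genes were 53.0% to 53.6% and 43.3% to 48.8%. The tick map of regions by distance shows how each gene was covered.

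**Figure D1:**
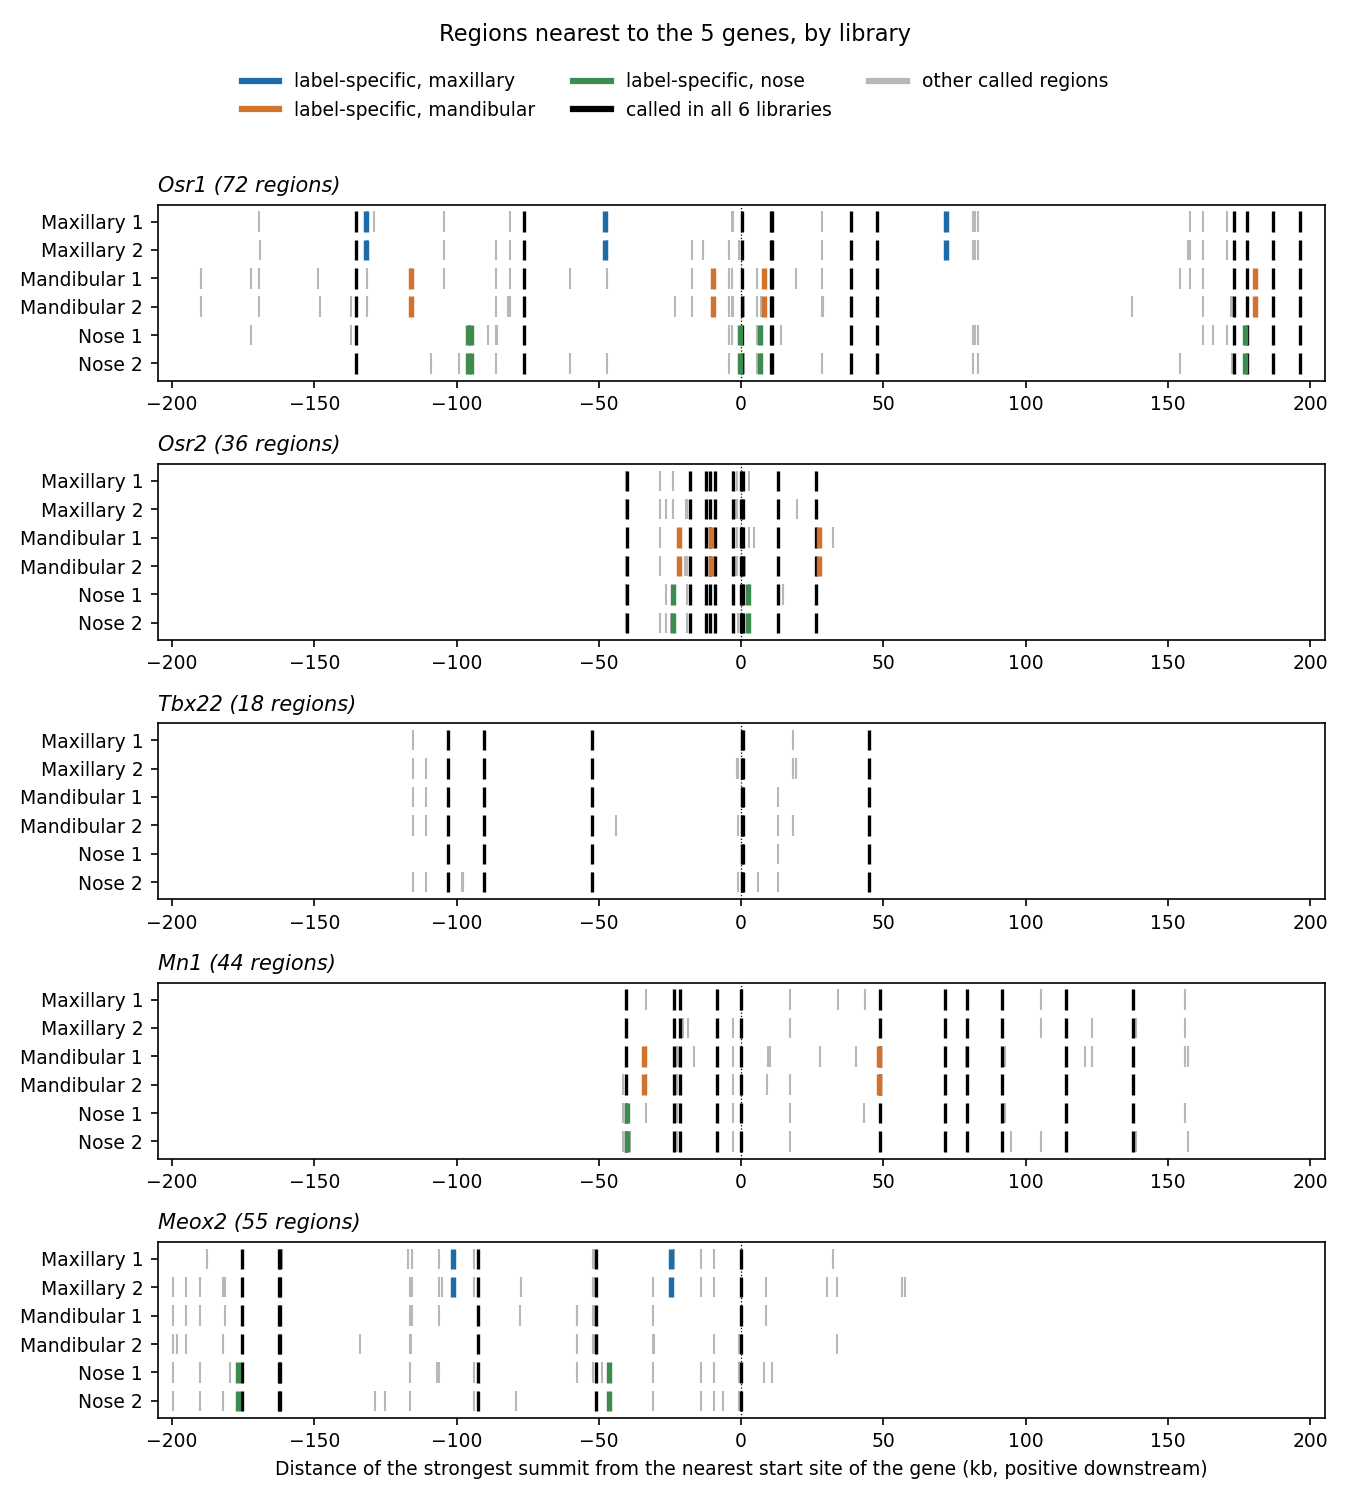
Regions nearest to Osr1, Osr2, Tbx22, Mn1 and Meox2 by distance of the strongest summit from the nearest start site of the gene (kb, positive downstream), with 1 line of ticks for each library. Black ticks are regions called in all 6 libraries, coloured ticks are regions called in both libraries of 1 label and in no other, and grey ticks are all other called regions. Osr1 has 12 label-specific regions and Tbx22 has none.

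The genes differed in how densely regions lay around them. Counted over the stretch that was nearest to each gene, Osr2 had 36.7 regions per 100 kb within 98.2 kb, more than 98.4% of the 10515 genes with at least 50 kb of such a stretch. Mn1 had 21.8 per 100 kb, Meox2 20.6 and Osr1 18, against a median of 15.1 over these genes. Tbx22 had 8.99 per 100 kb and stood above 27.1% of the genes. Osr2 lay between Stk3, 117 kb away on its upstream side, and Vps13b, 70.9 kb away on its downstream side, so its stretch was short. Regions at Meox2 lay mostly upstream, with 45 of 55 more than 1 kb before the start site. Those at Mn1 lay mostly downstream, with 27 of 44 more than 1 kb after it. For both genes the stretch nearest to the gene was also longer on that side. The next start sites lay 726 kb upstream and 133 kb downstream of Meox2, and 86.6 kb upstream and 316 kb downstream of Mn1. Density was not counted by side, so these counts do not show where regions lay more densely.

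The promoters were open in every library. Each of the 5 genes had a region within 1 kb of a start site that was called in all 6 libraries, as had 60.8% of the 21827 protein-coding genes. At Meox2 this region, chr12:37107930-37109743, was 1814 bp wide and its summit lay 0.059 kb before the start site. The deposited fold there was 8.80 and 7.81 in the maxillary, 8.12 and 8.05 in the mandibular and 8.21 and 8.85 in the nose libraries. At Mn1 the region chr5:111416575-111417392, with its summit 0.234 kb upstream, had folds of 7.55 and 7.64 in the maxillary, 7.31 and 7.03 in the mandibular and 7.33 and 7.52 in the nose libraries. The labels overlapped at Meox2, and at Mn1 the mandibular libraries were the lowest by a narrow margin.

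Osr2 had 2 promoter regions in all libraries. The region at its first start site, chr15:35295805-35296326, had its summit 0.103 kb upstream and folds of 7.46 and 6.30 in the maxillary, 6.12 and 6.12 in the mandibular and 6.49 and 5.90 in the nose libraries. A weaker one in an intron, chr15:35296405-35296681, had folds of 3.58 and 3.41 in the maxillary, 2.81 and 2.79 in the mandibular and 3.54 and 2.75 in the nose libraries. The maxillary libraries were above the mandibular libraries in both regions, and the nose overlapped with both jaws. A further region next to them, at chr15:35296754-35296888, was called in 5 libraries and not in maxillary process replicate 1.

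At Osr1 the region over the protein-coding start site, chr12:9574246-9574913, had its summit 0.301 kb downstream of that site in an untranslated part of the exon. The annotated gene begins further upstream, at position 9570116. The folds of the region over the start site were 5.50 and 4.45 in the maxillary, 4.91 and 4.03 in the mandibular and 6.81 and 5.52 in the nose libraries. The nose was highest and the jaws overlapped. Tbx22 had 2 promoter regions in all libraries, both in introns of the gene and next to later start sites. The region chrX:107676756-107677178 had folds of 7.26 and 7.61 in the maxillary, 6.49 and 8.62 in the mandibular and 6.24 and 8.08 in the nose libraries. The region chrX:107679232-107679798, 0.32 kb after the last of 4 start sites, had folds of 5.50 and 5.29 in the maxillary, 6.52 and 7.42 in the mandibular and 8.22 and 4.85 in the nose libraries. The 2 nose libraries differed from each other there by more than the means of any 2 labels. None of the regions of Tbx22 had its summit within 1 kb of the first start site at position 107667964.

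Of the 14 promoter regions of the 5 genes, 7 were called in all 6 libraries, and only these were tested. Their differences in log2 fold after quantile normalization ran from −0.34 to 0.25 for maxillary minus mandibular process. For maxillary process minus nose the differences ran from −0.31 to 0.10, and for mandibular process minus nose from −0.46 to 0.10. Their standard errors were 0.17 to 0.27, and the smallest adjusted p over the 3 contrasts was 0.43 (limma, 2 libraries a label). None of the 7 regions passed the threshold of 0.05, and differences of the size of these standard errors could not be resolved with 2 libraries a label.

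Of the regions further than 1 kb from a start site, the best-ranked one in all libraries was at Osr1, chr12:9584607-9585113, 10.5 kb downstream of the start site and beyond the end of the gene. Its folds were 10.3 and 7.60 in the maxillary, 7.13 and 8.30 in the mandibular and 9.91 and 9.82 in the nose libraries, and on average it stood within the strongest 4.45% of each list. The highest folds of all 225 regions were at Meox2, chr12:36946026-36946322, 162 kb upstream in an intron of the noncoding gene Gm48613. They were 11.3 and 15.4 in the maxillary, 10.0 and 13.7 in the mandibular and 11.0 and 14.0 in the nose libraries, and replicate 2 was above replicate 1 in each label while the labels overlapped. At Mn1 the best-ranked distant region, chr5:111376327-111377104, lay 40.6 kb upstream in an intron of Pitpnb, a phosphatidylinositol transfer protein gene. It had folds of 7.35 and 11.8 in the maxillary, 9.13 and 10.2 in the mandibular and 9.96 and 11.3 in the nose libraries.

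For Osr2 the best-ranked distant region was chr15:35326137-35326926, 26.5 kb downstream in an intron of the noncoding gene BC048602. Its folds were 7.25 and 9.48 in the maxillary, 6.68 and 6.54 in the mandibular and 9.99 and 8.15 in the nose libraries, so that the mandibular libraries were the lowest. For Tbx22 it was the intergenic region chrX:107564501-107565174, 103 kb upstream, with folds of 6.64 and 7.11 in the maxillary, 7.13 and 5.72 in the mandibular and 7.36 and 10.3 in the nose libraries. Averaged over the 6 libraries, the 44 shared regions had a median fold of 6.35, near the median of 6.41 over the 69940 regions of the series that all libraries had. Only 15.9% of the 44 were promoter regions, against 25.3% of those 69940. The plot of folds by library sets these regions side by side.

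**Figure D2:**
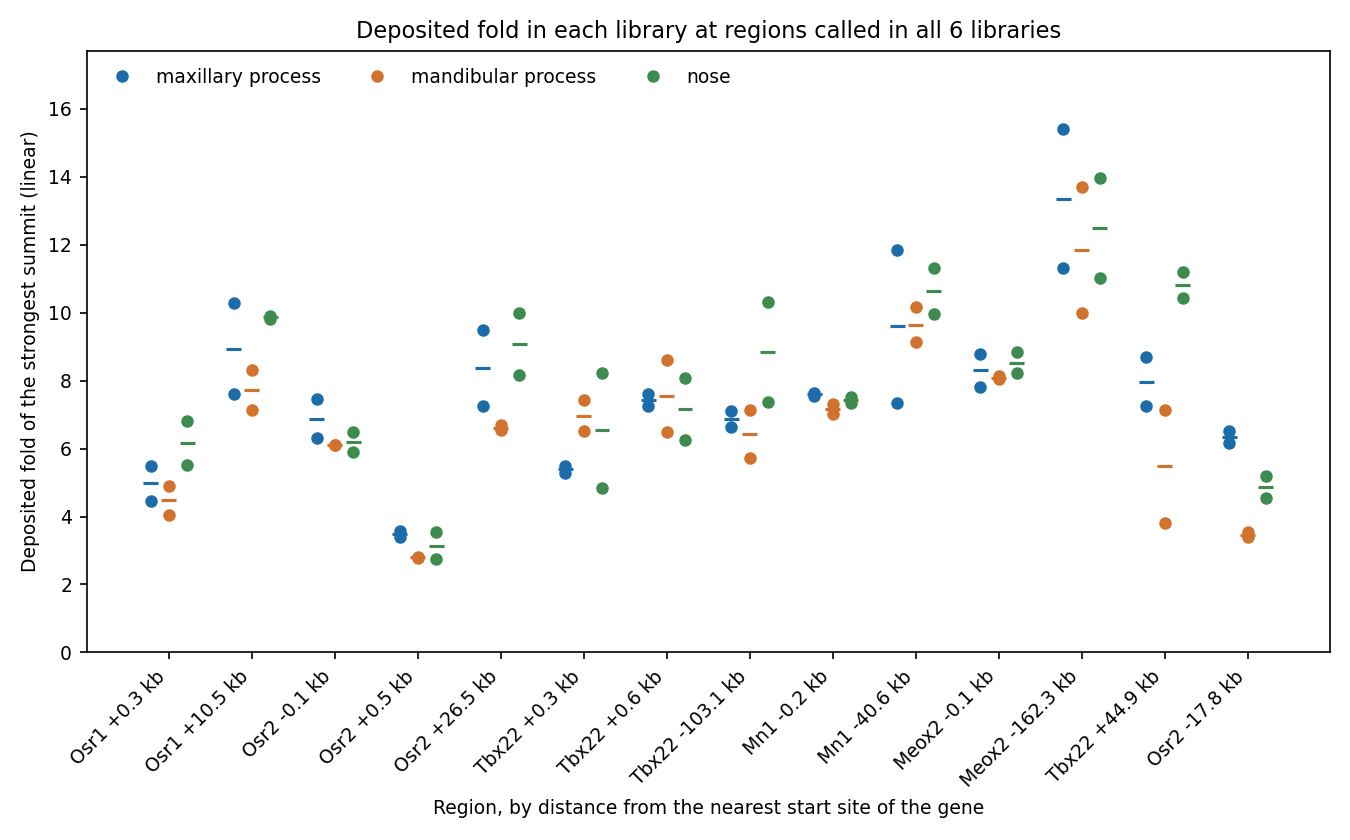
Deposited fold of the strongest summit (linear scale) in each library for the 7 promoter regions called in all libraries, the best-ranked distant region of each gene, the Tbx22 region at 44.9 kb and the Osr2 region at −17.8 kb. Points are libraries, 2 for each label, and short lines are their means. At the Tbx22 region at 44.9 kb the nose libraries (10.4 and 11.2) stand above all 4 jaw libraries.

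Which of the 44 shared regions differed between labels was tested with limma over all 69940 shared regions. Between maxillary and mandibular process 0 of the 44 passed, against 1.8% of all regions, and between maxillary process and nose 0 of 44 passed, against 2.09%. Between mandibular process and nose 1 of 44 passed, against 3.35%. At an unadjusted p under 0.05 there were 6 (13.6%), 4 (9.09%) and 4 (9.09%) of the 44 in these 3 contrasts, against 13.7%, 14% and 15.9% of all tested regions.

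The region that passed lay 44.9 kb downstream of the last start site of Tbx22, at chrX:107723354-107724204, between genes. Its folds were 7.25 and 8.69 in the maxillary libraries, 3.80 and 7.15 in the mandibular libraries, and 10.4 and 11.2 in the nose libraries. Both nose libraries were above all 4 jaw libraries, and mandibular process replicate 1 was far below the others. The mandibular libraries were lower than the nose libraries by a log2 difference of −1.04 ± 0.24 (SE, adjusted p = 0.0117, limma, 2 libraries each). Maxillary minus mandibular process came to 0.61 ± 0.24 (adjusted p = 0.22, limma) and maxillary process minus nose to −0.44 ± 0.24 (adjusted p = 0.44, limma). The call was lost without mandibular process replicate 1, where the difference was −0.59 (adjusted p = 0.35, limma), and at adjusted p-values of 0.064 to 0.13 (limma) without either maxillary or either nose library. It was also lost without the variance trend (adjusted p = 0.055, limma). Without mandibular process replicate 2 the difference was −1.50 with an adjusted p under the threshold, but mandibular process replicate 1, the lowest library, then stood alone for its label and was assumed to vary like the other labels.

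The smallest adjusted p between the jaws was at Osr2, at the intergenic region chr15:35278214-35278802, 17.8 kb upstream. Its folds were 6.52 and 6.17 in the maxillary, 3.53 and 3.41 in the mandibular and 4.54 and 5.20 in the nose libraries, so that the 3 labels did not overlap. The difference of maxillary minus mandibular process was 0.82 ± 0.25 (SE, adjusted p = 0.083, limma), which missed the threshold, and with median scaling in place of quantile normalization it was 0.88 (adjusted p = 0.038, limma). Maxillary process minus nose was 0.35 ± 0.25 (adjusted p = 0.60, limma) there, and mandibular process minus nose −0.47 ± 0.25 (adjusted p = 0.37, limma). The smallest adjusted p between maxillary process and nose was at Osr1, at chr12:9497981-9498622, 76.2 kb upstream. Its folds were 3.62 and 4.34 in the maxillary, 6.02 and 4.77 in the mandibular and 5.67 and 6.71 in the nose libraries, with a difference of −0.70 ± 0.25 (SE, adjusted p = 0.15, limma). The forest plot of differences shows all 44 regions.

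**Figure D3:**
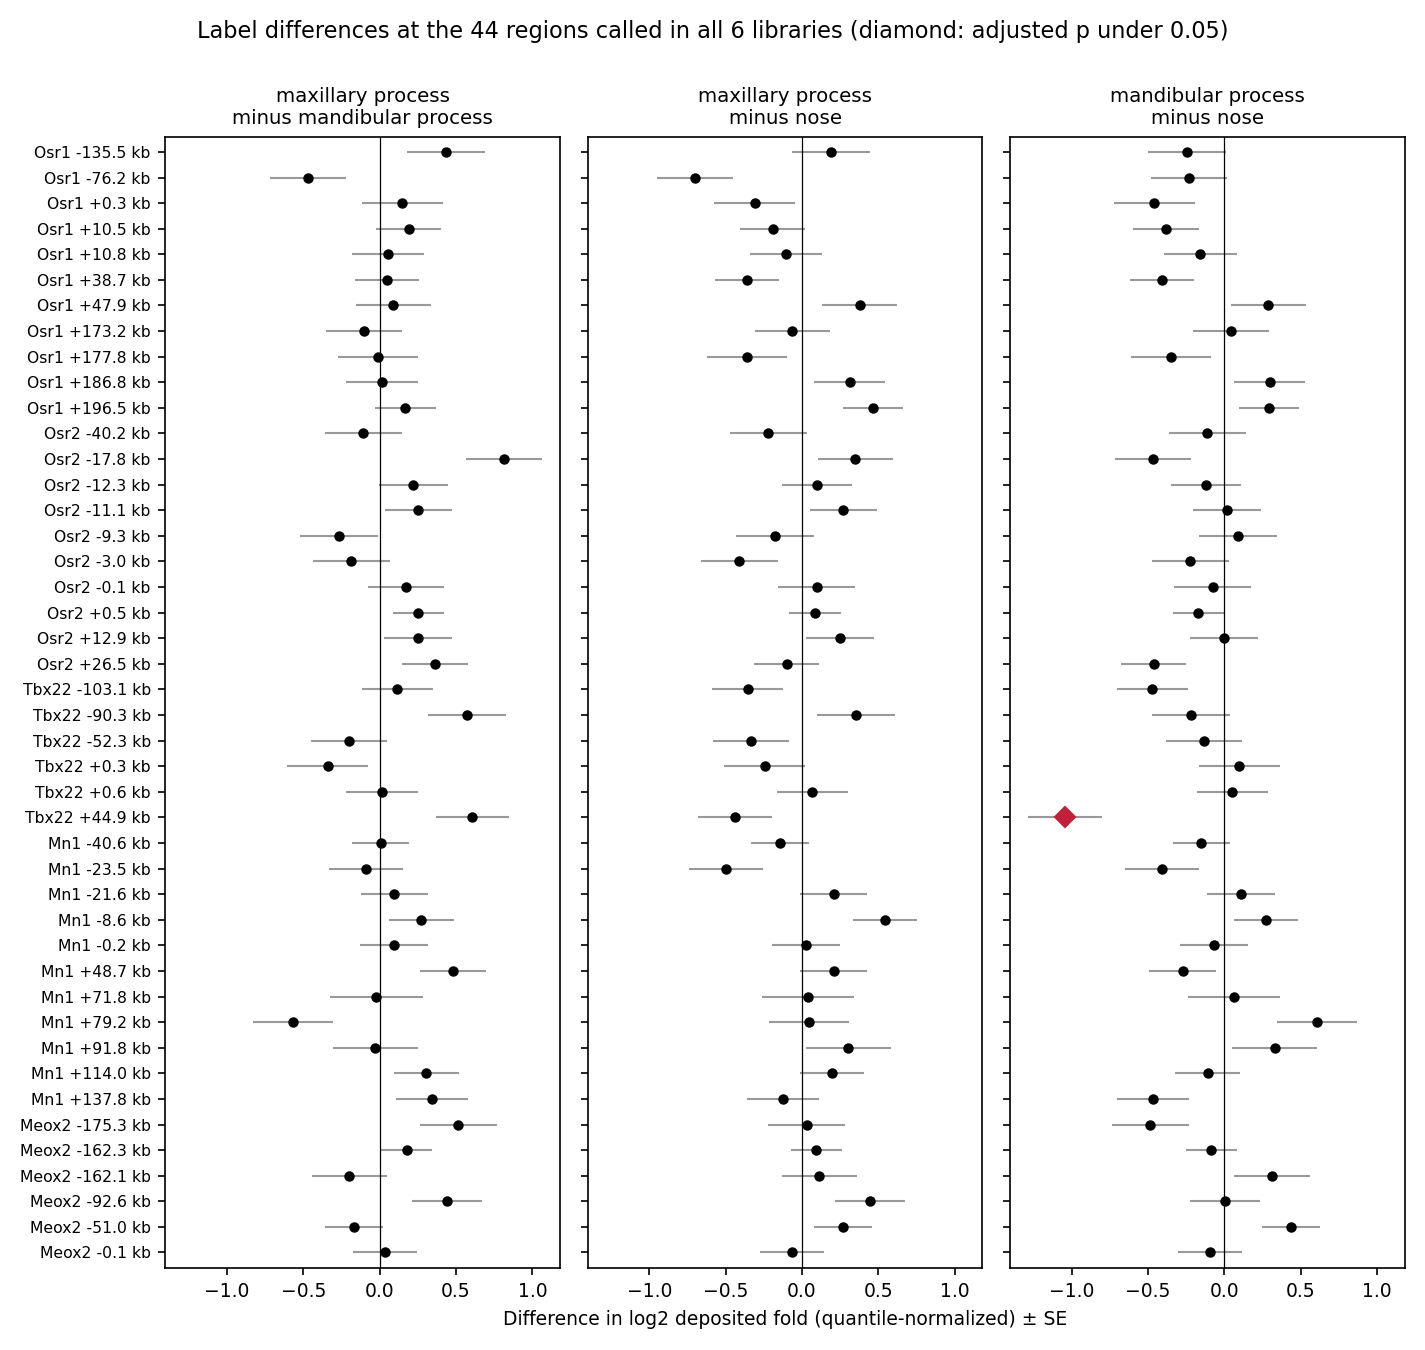
Differences in quantile-normalized log2 deposited fold between labels, with the standard error of limma, for the 44 regions called in all 6 libraries, ordered by gene and distance from the start site. The red diamond is the Tbx22 region at 44.9 kb in mandibular process minus nose (−1.04), the only point with an adjusted p under 0.05.

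Regions that only the libraries of 1 label had were counted next. Of the 225 regions, 5 (2.22%) were called in both maxillary libraries and in no other, against 1.84% of all regions near genes. For the mandibular label there were 9 (4.00%), against 2.64%, and for the nose label 10 (4.44%), against 2.9%. These shares rest on 24 regions, 12 of them at Osr1, 5 at Osr2, 3 at Mn1 and 4 at Meox2. Their median width was 240.5 bp, against 196 bp over the 225 regions and 581 bp over the 44 shared ones. Most were weak in at least 1 library. Of the 24, 19 had a −log10 q under 3 in at least 1 of their libraries, and 6 lay within 1 kb of a region that all libraries had. These counts were not made over all label-specific regions of the series. By mean rank among those of the same label, the 24 ran from place 22 of 10788 (mandibular) to the last of 12140 (nose). With lists of equal length 5, 3 and 6 regions were specific to the maxillary, mandibular and nose labels. Shares over all regions near genes were not counted for this setting or the stricter ones that follow. With a −log10 q of at least 3 required in every list, 5 of the 24 were still label-specific, and with at least 5 only 1 was.

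That 1 region was at Osr2, chr15:35327448-35327867, 27.2 kb downstream in an intron of BC048602. It had folds of 7.63 and 8.84 and a −log10 p of 14.4 and 17.9 in the mandibular libraries, and no listed peak in the maxillary or nose libraries. Among all 10788 regions of the series with a peak in the mandibular libraries only, it stood in place 22 by its mean rank in the lists. It stayed specific to this label in lists of equal length, at both stricter thresholds and with the wider cover required. It began 521 bp beyond the shared region at 26.5 kb, where the mandibular libraries had the lowest folds. A second Osr2 region with the mandibular label, chr15:35273964-35274576, 22.0 kb upstream and between genes, had folds of 5.94 and 4.43 and stood in place 507. The remaining one, 10.7 kb upstream, was weak, with folds of 3.43 and 3.22, and lay 62 bp from a shared region. Osr2 had no region specific to the maxillary label. Its 2 nose-specific regions, 24.1 kb upstream and 2.33 kb downstream of the nearest start site, had folds of 2.88 to 4.31.

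The strongest region with the maxillary label was at Meox2, chr12:37083794-37084183, 24.7 kb upstream in introns of the noncoding genes Gm48616 and Gm48617. Its folds were 4.23 and 8.29, with a −log10 p of 5.23 and 16.4, so the 2 maxillary libraries themselves differed widely, and it stood in place 825 of 7282. The other maxillary-specific region of Meox2, 101 kb upstream, had folds of 4.23 and 4.74. Osr1 had the remaining 3, at 132 kb and 47.8 kb upstream and 72.0 kb downstream, with folds of 3.55 to 5.13. Of these, the one 132 kb upstream (4.82 and 4.30) was still specific with a −log10 q of at least 3.

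With the nose label, Osr1 had 5 of the 10 regions. A pair of them lay side by side in intergenic DNA 95.1 kb and 95.9 kb upstream, at chr12:9479223-9479580 with folds of 3.97 and 5.44 and at chr12:9478510-9478756 with folds of 4.40 and 4.02. Another was a stretch of 77 bp in the promoter, 0.493 kb upstream of the start site, with folds of 2.90 and 3.08, and it lay 256 bp from the shared promoter region, at which the nose libraries had the highest folds. The other nose regions of Osr1, 6.65 kb and 177 kb downstream, had folds of 2.40 to 3.22. Besides those at Osr2, the nose label had 2 regions at Meox2, 46.4 kb and 177 kb upstream, with folds of 3.03 to 4.80. It also had 1 at Mn1 with folds of 3.0 and 2.93. With the mandibular label, Osr1 had 4 regions and Mn1 had 2, with folds of 2.70 to 6.18. Among them the Mn1 region 34.0 kb upstream, in an intron of Pitpnb, had folds of 6.18 and 3.34, and the Osr1 region 9.76 kb upstream had 5.62 and 3.34.

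**Figure D4:**
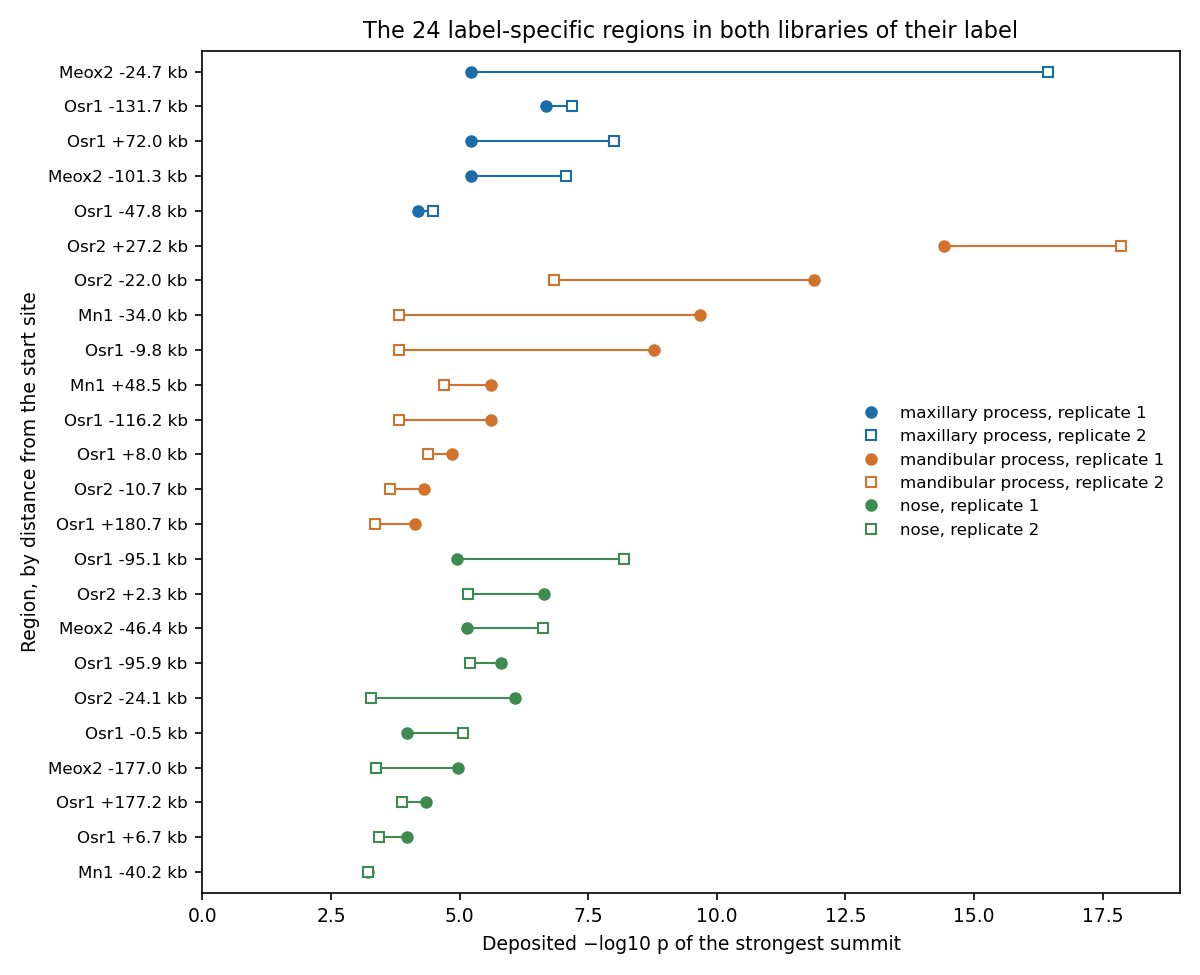
Deposited −log10 p of the strongest summit in replicate 1 (filled circles) and replicate 2 (open squares) of the label, for the 24 regions called in both libraries of 1 label and in no other, named by gene and distance from the start site. The Osr2 region at 27.2 kb stands apart with 14.4 and 17.9, both in the mandibular libraries.

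The reverse pattern, a region missing from 1 label only, was seen 11 times among the 225. Both jaws had 4 regions (1.78%) that the nose libraries lacked, against 0.91% of all regions near genes. Of these, the Osr1 region 81.2 kb upstream, chr12:9492899-9493586, had folds of 5.93 and 7.05 in the maxillary and 5.78 and 5.52 in the mandibular libraries. The others were at Osr1 131 kb upstream, at Osr2 1.44 kb upstream of its second start site, and at Meox2 51.6 kb upstream, with folds of 2.62 to 6.21. The mandibular libraries alone lacked 4 regions (1.78%), against 0.775%. They were at Osr1 81.6 kb and 83.2 kb downstream, with folds of 3.62 to 6.04, and at Meox2, 14.0 kb and 94.0 kb upstream, with folds of 4.20 to 5.92. The maxillary libraries alone lacked 3 regions (1.33%), against 1.16%, of which Tbx22 had 1 at 13.0 kb downstream, with folds of 3.33 and 3.34 in the mandibular and 4.73 and 4.32 in the nose libraries.

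Single libraries moved some of these counts. Mandibular process replicate 1 had 30 of the 44 Mn1 regions (68.2%). The maxillary libraries had 18 and 19, the other mandibular library 19 and the nose libraries 20 and 21. Maxillary process replicate 2 had 30 of the 55 Meox2 regions (54.5%), against 20 to 24 in the other libraries. Tbx22 regions were called 8 and 12 times (44.4% and 66.7%) in the maxillary and 10 and 12 times (55.6% and 66.7%) in the mandibular libraries. In the nose libraries they were called 7 and 14 times (38.9% and 77.8%). Over all regions near genes the libraries had 38.5% and 46.9% (maxillary), 50.2% and 47.3% (mandibular), and 46.6% and 50.0% (nose). Weak folds also came in steps. Between 36.1% and 46.1% of the regions called in a library shared their exact fold with another region of these genes in that library, as with 3.33 at 18 regions in mandibular process replicate 1.

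A list of 19 other genes of palate growth and patterning gave 1041 regions. Of these, 194 (18.6%) were called in all libraries, against 20.2% of all regions near genes. Specific to a label were 16 (1.54%) for the maxillary process, 37 (3.55%) for the mandibular process and 26 (2.50%) for the nose, against 1.84%, 2.64% and 2.9% of all regions. A promoter region in all libraries was found at 17 of the 19 genes, against 60.8% of all protein-coding genes. Shox2, a homeobox gene of the anterior palate, and Sim2 had none. Among the 194 shared regions limma called 2 as higher and 1 as lower in maxillary than in mandibular process (1.55%, against 1.8% of all tested regions). It called 1 as higher in maxillary process than in nose (0.515%, against 2.09%), and 5 as higher and 3 as lower in mandibular process than in nose (4.12%, against 3.35%). Fgf10, a growth factor of palatal mesenchyme, had 3 of these calls. Foxf2, a forkhead gene of palatal mesenchyme, had the 1 promoter region among the 19 genes that was specific to a label, the mandibular process.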

How the data were processed

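ATAC-seq was made from E11.5 mouse face tissue, with 2 libraries for each of 3 labels, and the labels decided the groups. Alignment with Bowtie2, SAMtools and the build mm10 are listed in the submitters' processing notes. The peak caller of these lists is not given in the sources used here. The study's methods describe duplicate removal, a Tn5 shift and a blacklist filter for ATAC-seq in general. They also describe a subsample of reads for peak calling and an assessment of peaks by irreproducible discovery rate. Whether these lists were made that way is not stated there. Each deposited list was called on 1 library and gives, per summit, a score, a fold over local background (a linear ratio), a −log10 p and a −log10 q. The deposited score is the −log10 p times 10, cut to a whole number and capped at 1000, and the summit position is a deposited offset with no unit of signal. Because the fold is relative to the background of its own library, depth and background can move it. No file held reads, so no interval from counts is given.

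Lists were merged at 1 bp. Strongest summits, by rank within their list, were given to protein-coding start sites of GENCODE M21 up to 200 kb away, and 1 kb defined promoters. For regions called in all 6 libraries, log2 of the deposited fold was quantile-normalized and fitted with limma 3.58.1 (R 4.3.3, variance trend, Benjamini-Hochberg adjustment over 69940 regions, threshold 0.05, two-sided). On simulated data with 100 regions each changed by 1 or 1.5 on the log2 scale, the fit was checked before use. That check gave every region the same spread, unlike the data, so it does not measure the power behind the results above. Presence of a peak was described without a test. Motif windows reached 100 bases to each side of a summit. Python 3.11.15, numpy 2.4.6, pandas 2.3.3 and matplotlib 3.10.9 were used.

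Named regions were the promoter regions and the best-ranked distant region of each gene that were called in all libraries. Up to 3 label-specific regions per gene and label, and up to 3 regions past the limma threshold per gene and contrast, were added. Of the promoter regions called in fewer libraries, only some were named. The regions with the smallest adjusted p between the jaws and between maxillary process and nose, and those missing from 1 label, were named after their values were seen. Of the palate list, genes with the most limma calls, a label-specific promoter or no shared promoter region were named. Some members of the marker and palate lists are not reported here. The genes and lists were chosen with earlier results of these data known. No list held more than 0.0701% of its intervals in common with another, so none was deposited more than once. Alternatives were equal list lengths, a −log10 q of at least 3 or 5, a cover of 50% or 200 bp, other rules of assignment, other scalings, filters and variance models, a replicate block, and the removal of each library. A further marker list was compared and is not reported here.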

Additional observations from a re-analysis of the deposited data

How the results depend on the processing

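Counts of regions at the 5 genes moved with the peak threshold. The same counts over all regions near genes were not made under these alternatives. Whether the moves are particular to the 5 genes was therefore not tested. At a −log10 q of at least 3, 144 regions were left, with 5 specific to the mandibular and 4 to the nose label. At 5 or more, 98 were left, with 22 in all libraries and 2, 3 and 1 specific to the maxillary, mandibular and nose labels. With lists cut to 219779 summits each, 3 were specific to the mandibular and 6 to the nose label. A cover of 50% or 200 bp left 28 in all libraries and 8 specific to the maxillary label. Start sites up to 100 kb away gave 3 regions specific to the maxillary label, and every gene within 200 kb gave 351 regions, 69 in all libraries and 14 specific to the mandibular label. Without each library in turn, there were 212 to 221 regions, 44 to 51 in all libraries, and 6 to 23, 9 to 29 and 10 to 24 specific to the maxillary, mandibular and nose labels. The rise follows from the rule, since 1 library then stands for its label.

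The limma counts over all genes were 664, 623 and 1263 with rank scores and 686, 961 and 1733 without the variance trend, for maxillary minus mandibular process, maxillary process minus nose and mandibular process minus nose. Rank scores also turned the split of higher and lower calls to 245 and 419 between the jaws, against 640 and 619, and to 293 and 330 between maxillary process and nose, against 858 and 606. Without each library in turn they were 0 to 1173, 0 to 1115 and 320 to 1312. At the 5 genes the count was 0 for both contrasts of the maxillary process without any library and 0 to 1 for mandibular process minus nose, where the 1, at Tbx22, came without mandibular process replicate 2 and rested on replicate 1 alone, assumed to vary like the other labels. Median scaling added 1 call between the jaws, and no variance trend left 0 between mandibular process and nose. Deviations from the label mean hardly correlated between libraries of the same replicate number (0.0070 to 0.065). The replicate block gave 1912, 2188 and 3118 calls over all genes, against 1259, 1464 and 2342 without it. It changed no call at the 5 genes. Whether libraries of the same replicate number share an effect was not tested further. The differences at the Osr2 region 17.8 kb upstream between the jaws, the Osr1 region 76.2 kb upstream between maxillary process and nose and the Tbx22 region between mandibular process and nose kept their sign in every alternative run. Read depth was not used here, and the cause of these changes was not tested.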
